A study of Zea mays with 12 samples.

Results

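A group of 172 nuclear gene models of the maize root was low both with nitrate and with the inhibitor TIS108, and stood at the level of the N-deprived control when PCIB was given with nitrate. They are 172 of 26061 nuclear gene models in the expression table, and of the 15740 with at least 5 FPKM in their highest group. FPKM is a fragment count divided by the length of the gene and by all mapped fragments. The 172 were chosen by their values on the log2(FPKM + 1) scale. Under nitrate and under TIS108 a gene had to be at least 1.5-fold (on that scale) below both the control and nitrate plus PCIB. Nitrate had to lie within 1.5-fold of TIS108, and the control within 1.5-fold of nitrate plus PCIB. Because these values chose the genes, their directions are built in, and what follows is a description without a test.

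All 4 groups were primary roots of seedlings of the inbred line B73, germinated for 3 days and then grown for 24 h in a nutrient solution. The N-deprived control had no nitrogen, and the TIS108 group had the same solution with 2 µM TIS108. The nitrate group had 1 mM nitrate, and the last group had 1 mM nitrate with 10 µM PCIB. No group here received PCIB without nitrate or TIS108 with nitrate. There were 12 samples, 3 biological replicates in each group with 4 to 8 plants apiece, and the deposited table gives 1 value per gene and group. No value therefore has an SD, and no difference has a replicate check.

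Nitrate is both a nutrient and a signal for plant roots, and it changes how lateral roots form and elongate. Strigolactones are hormones derived from carotenoids, made mainly in roots, whose synthesis rises in many plants when nutrients are short; TIS108 blocks that synthesis. Auxin sets the pattern of roots and starts lateral roots, and PCIB (p-chlorophenoxyisobutyric acid) inhibits its action. The series concerns how these hormones act together in the response of roots to nitrate. None of the 172 identifiers could be paired with a gene name, so the genes are given by identifier, with no function. For the same reason the root identity of the samples was not checked on marker genes.

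The levels of the 172 genes were close to each other in control roots and under nitrate plus PCIB, and lower in the other groups. Their median was 14.5 FPKM in control roots and 14.3 FPKM under nitrate plus PCIB, against 6.41 FPKM under nitrate and 6.87 FPKM under TIS108. The medians over all 15740 genes lay between 13.2 and 13.3 FPKM in all 4 groups. At least 5 FPKM was held by 163 of the 172 genes in control roots and 164 under nitrate plus PCIB, by 104 under nitrate and by 109 under TIS108. These counts follow largely from the choice, which asked for 5 FPKM in the highest group and lower values under nitrate and TIS108. The shares of all 15740 genes at this level in each group were not computed. Their summed level was 7303 FPKM in control roots and 7343 FPKM under nitrate plus PCIB. Under nitrate it was 3770 FPKM and under TIS108 3767 FPKM. As a share of all entries, the 172 genes held 1.47% of the FPKM in control roots, 1.52% with nitrate plus PCIB, 0.803% with nitrate and 0.842% with TIS108. The sums and shares count both Zm00001d016660 and Zm00001d016661, near-identical entries of 550 FPKM each in control roots that may not be separate observations. In whole roots, fewer cells of a type and less RNA per cell cannot be told apart.

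**Figure D1:**
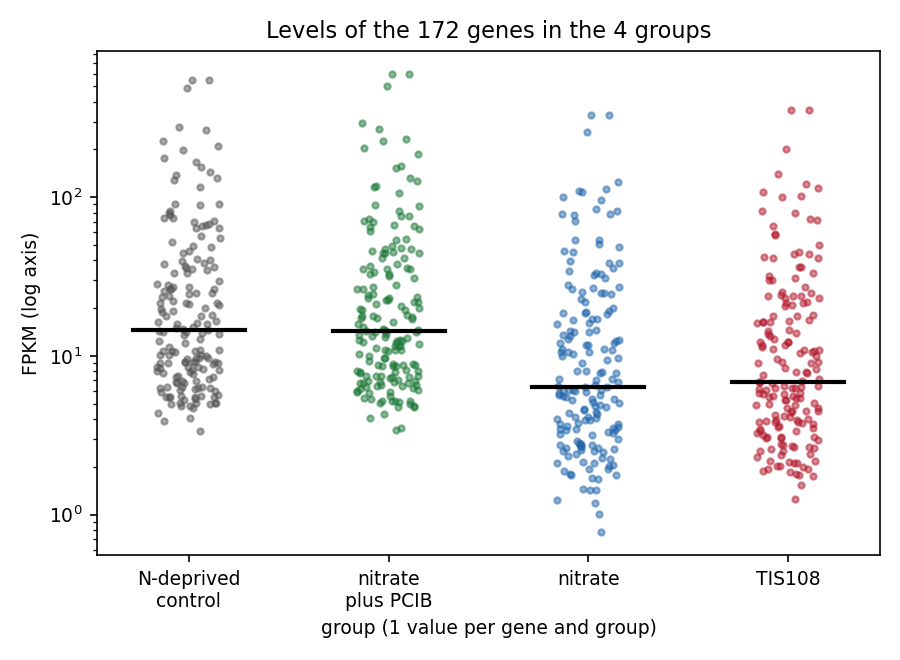
FPKM (log axis) of each of the 172 genes in the 4 groups; points are genes, spread sideways at random, and black bars are medians. The medians of the control and of nitrate plus PCIB, 14.5 and 14.3 FPKM, lie above those of nitrate and TIS108, 6.41 and 6.87 FPKM.

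In each of the 4 comparisons that the choice used, the typical gene was lower by a similar amount. Relative to control roots, nitrate had a median log2 difference of -0.95 and TIS108 one of -0.86, where the medians over all 15740 genes were 0.05 and 0.01. The median FPKM ratio to the control was 0.485 under nitrate and 0.506 under TIS108. Relative to nitrate plus PCIB these medians were -0.93 and -0.89, beside 0.04 and 0.01 over all genes. By the choice all 172 passed 1.5-fold in each comparison. Of all 15740 genes, 10.0% were lower by this much with nitrate than in control roots and 7.50% with TIS108, and 8.56% and 6.96% were lower than with nitrate plus PCIB. A difference of 1 or more on the log2 scale (2-fold) was held by 70 of the 172 genes with nitrate against the control (3.55% of all genes) and by 55 under TIS108 (1.69%). Against nitrate plus PCIB it was held by 74 under nitrate (3.69%) and by 59 under TIS108 (2.69%). The members had to pass 1.5-fold already, so a larger share than over all genes is built in. Of all genes past 1.5-fold against the control, members included, 558 of 1575 passed 2-fold with nitrate and 266 of 1180 with TIS108. Against nitrate plus PCIB these were 581 of 1347 under nitrate and 424 of 1096 under TIS108. All 4 comparisons were past 2-fold in 17 of the 172 genes, and none of them in 56. The same counts over all 15740 genes were not made, so these have no reference. The comparisons share columns, so their counts are not independent of each other.

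The widest separation belonged to Zm00001d012378. It stood at 22.2 FPKM in control roots and 24.4 FPKM under nitrate plus PCIB, and at 6.08 FPKM under nitrate and 5.60 FPKM under TIS108. Its smallest log2 difference between a high and a low group was 1.71, the widest of any member, with a 3.66-fold ratio of control to nitrate. Zm00001d011649 came next, at 15.0 FPKM in control roots, 3.45 under nitrate, 4.24 under TIS108 and 21.2 under nitrate plus PCIB. On the log2(FPKM + 1) scale it was the 1 member with any difference past 2, reached against nitrate plus PCIB and not against the control. Its level with PCIB was 1.41 times that of the control.

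Zm00001d041611 joined a wide separation with a high level. It was at 228 FPKM in control roots, 78.3 FPKM under nitrate, 81.6 FPKM under TIS108 and 294 FPKM under nitrate plus PCIB. Of the 8 members most abundant in control roots, it alone was also among the 10 with the widest separation. Zm00001d040292 was at 79.3 FPKM in control roots, 28.1 under nitrate, 23.8 under TIS108 and 72.9 under nitrate plus PCIB. Zm00001d003346 had nearly equal high levels, 33.5 FPKM in control roots and 33.7 FPKM under nitrate plus PCIB, against 14.2 FPKM under nitrate and 12.8 FPKM under TIS108.

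The other 5 of the 10 widest were genes of under 10 FPKM in control roots. Zm00001d022057 matched within both pairs of groups, with 7.15 and 7.31 FPKM in control roots and under nitrate plus PCIB, and 1.94 FPKM both under nitrate and under TIS108. Zm00001d037632 had the largest ratio of control to nitrate of these, 5.24, from 6.16 FPKM in control roots, 1.18 under nitrate, 1.25 under TIS108 and 5.21 under nitrate plus PCIB. Zm00001d015977 was lower with TIS108 than with nitrate, at 8.22 FPKM in control roots, 2.47 under nitrate, 1.98 under TIS108 and 8.75 under nitrate plus PCIB. How many fragments lie behind such low levels is unknown. Zm00001d044921 was at 8.97 FPKM in control roots, 2.73 under nitrate, 2.52 under TIS108 and 7.84 under nitrate plus PCIB. Zm00001d003187 was at 9.69, 2.65, 3.81 and 11.5 FPKM in the same order, so that its low groups were less alike than those of the others.

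**Figure D2:**
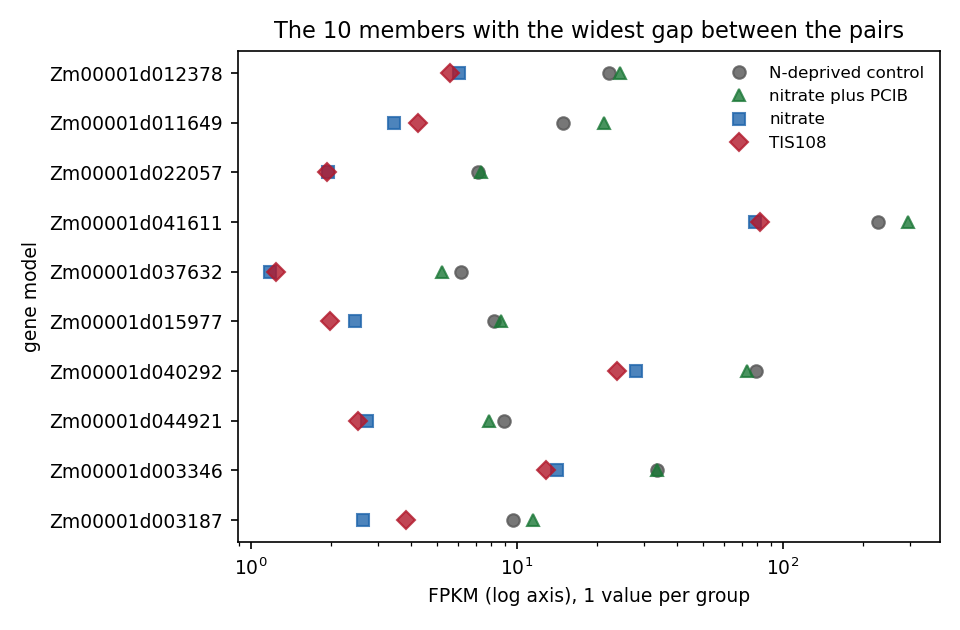
FPKM (log axis, 1 value per group) of the 10 genes with the widest separation. In each gene the control and nitrate plus PCIB stand apart to the right of nitrate and TIS108, from Zm00001d012378 (22.2 and 24.4 against 6.08 and 5.60 FPKM) at the top to Zm00001d003187 at the bottom.

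The group reached into the abundant transcripts of the root. In the control 66 members were below 10 FPKM, 56 from 10 to 30, 34 from 30 to 100 and 16 at 100 FPKM or more. The members were 1.12%, 0.870%, 1.31% and 1.95% of the genes with at least 5 FPKM in any group that fell in these classes. The median ratio of control to nitrate was 2.40 in the lowest class and 1.84 in the highest, and that of control to TIS108 was 2.07 and 1.97. Members of the lowest class needed a wider ratio to pass, since the 1 added to FPKM narrows low values. Across the 16 abundant members the control ran from 115 to 550 FPKM (median 187) and nitrate plus PCIB from 106 to 601 FPKM (median 196). Nitrate ran from 50.6 to 332 FPKM (median 98.6) and TIS108 from 45.4 to 353 FPKM (median 101).

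Zm00001d016661 and Zm00001d016660 had the highest levels, and their values were nearly the same. Both were at 550 FPKM in control roots. With nitrate they stood at 332 FPKM each, with TIS108 at 353 FPKM each and under nitrate plus PCIB at 600.5 and 601 FPKM. They are uncertain as separate observations, since the counting could have split or shared fragments between near-identical entries. They were among the less separated members, with a control to nitrate ratio of 1.66 for each.

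Zm00001d027652 followed at 489 FPKM in control roots and 503 FPKM under nitrate plus PCIB. It was lower with TIS108, at 202 FPKM, than with nitrate, at 259 FPKM. Zm00001d038911 had the reverse order, with 109 FPKM under nitrate and 140 FPKM under TIS108, below 278 FPKM in control roots and 271 FPKM under nitrate plus PCIB. In Zm00001d005146 the control was at 267 FPKM, nitrate at 113, TIS108 at 122 and nitrate plus PCIB at 233 FPKM. Zm00001d016864 stood at 212, 124, 114 and 188 FPKM in that order, and Zm00001d028998 at 199, 107, 100.2 and 226 FPKM. PCIB with nitrate was thus above the control in the second of these and below it in the first.

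The same choice with the directions exchanged found 0 genes. Of all genes alike within both pairs of groups (13727), none was higher by 1.5-fold under nitrate and TIS108 than in both other groups, and the widest such separation was 0.57 on the log2 scale. The counts depended on the limit. With a log2 limit of 0.3 there were 627 genes on the lower side and 58 on the higher, and with 0.4 there were 405 and 21. At 0.1 they were 1564 and 1388. With any separation at all, the higher side had more, 3918 against 2459. The excess on the lower side was therefore in the wider separations. When the columns were rescaled to the same sum of FPKM, 93 genes met the choice and 6 the exchanged one, so the numbers rest on the scaling while the lower side stayed the larger.

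**Figure D3:**
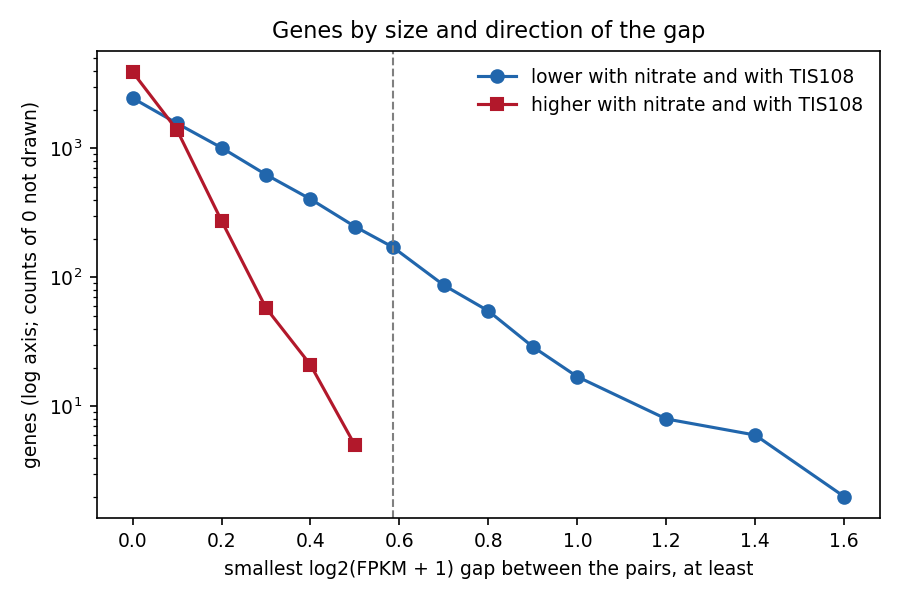
Number of genes (log axis) whose smallest log2(FPKM + 1) difference between the high and the low pair of groups reached the value on the horizontal axis, for each direction, among genes alike within both pairs; the dashed line is the limit of 1.5-fold. At that limit 172 genes were lower and 0 higher, while at a limit of 0 the numbers were 2459 and 3918.

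Outside the nuclear gene models, a microRNA locus showed the exchanged pattern. The locus of MIR408b, of a family that targets transcripts of copper proteins, was at 2.204 FPKM in control roots, 5.56 under nitrate, 5.13 under TIS108 and 1.45 under nitrate plus PCIB. Its low groups were thus the control and nitrate plus PCIB. Even its highest level was near the minimum of 5 FPKM, and the number of fragments behind these values is unknown. The entry ENSRNA049997515 holds identical values, so that they count as 1 observation. Of the 390 entries outside the nuclear gene models, 261 reached 5 FPKM, and 1 met the choice itself. That was ENSRNA049477080, at 27.8 FPKM in control roots, 15.6 under nitrate, 11.2 under TIS108 and 31.6 under nitrate plus PCIB. These entries were looked at after the values were seen.

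PCIB had several outcomes among genes lowered with both nitrate and TIS108. Of the 15740 genes, 793 were lower by 1.5-fold than the control in both, and in 659 of these nitrate and TIS108 were within 1.5-fold of each other. The 172 members are 26.1% of the 659. In 194 genes (29.4%), nitrate plus PCIB was near both low groups and 1.5-fold or more from the control. In 139 (21.1%) it was within 1.5-fold of the control and of both low groups, so that these genes belong to neither side. In 31 (4.70%) it was above the control by 1.5-fold or more, and the remaining 123 (18.7%) met none of these descriptions. On the other side, 29 genes were higher than the control in both, in 23 of which nitrate and TIS108 were alike. Of these 23 genes, 0 had nitrate plus PCIB near the control and apart from both, and 10 (43.5%) had it near nitrate and TIS108. All these groups use the 1 control column. They were counted on the columns as given, and not after rescaling. Rescaling to equal sums moved the median of all genes for TIS108 against the control from 0.01 to 0.16.

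Within the low pair, nitrate was more often below TIS108. That was so for 107 of the 172 genes (62.2%), where 45.9% of all 15740 genes were lower with nitrate. After rescaling of the columns to equal sums these shares were 60.2% of the members then found and 59.2% of all genes. After quantile normalization, which gives all columns the same distribution, they were 61.5% of the members then found and 49.2% of all genes. With a pseudocount of 5 they were 53.8% of the members then found and 45.9% of all genes. The contrast with all genes thus depended on the scaling and on the pseudocount. The median log2 difference of nitrate from TIS108 was -0.05, and 62 members differed by less than 0.1. The choice itself limited this difference, and the share of all genes as close was not computed. The members farthest apart were Zm00001d026649, at 2.73 FPKM under nitrate and 4.51 under TIS108, and Zm00001d052776, at 1.24 and 2.29 FPKM. Their high levels were 7.71 and 8.65 FPKM for the former and 4.37 and 6.02 FPKM for the latter, in control roots and under nitrate plus PCIB. In the other direction, Zm00001d023293 was at 10.6 FPKM under nitrate and 6.84 under TIS108, below 19.6 FPKM in control roots and 17.3 FPKM under nitrate plus PCIB. Zm00001d012439 was at 53.4 FPKM under nitrate and 36.4 FPKM under TIS108, below 89.1 and 82.5 FPKM.

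Within the high pair, neither group was favoured. Nitrate plus PCIB was above the control in 84 of the 172 genes (48.8%) and below it in 88, where it was above in 50.3% of all genes. The median log2 difference was -0.01, and 54 members differed by less than 0.1. Here too the choice limited the difference, and no share of all genes as close was computed. The highest ratio of nitrate plus PCIB to control was 1.56, in Zm00001d044864, at 4.82 FPKM in control roots, 2.72 under nitrate, 2.38 under TIS108 and 7.52 under nitrate plus PCIB. Zm00001d033478 was at 7.32, 4.11, 3.85 and 11.2 FPKM in the same order. At the other end, Zm00001d022127 reached 0.628 of the control. It was at 5.60 FPKM in control roots, 0.772 under nitrate, 1.54 under TIS108 and 3.52 under nitrate plus PCIB, and its 7.26-fold ratio of control to nitrate was the largest of all members. Zm00001d031852 was at 29.8 FPKM in control roots and 20.1 FPKM under nitrate plus PCIB, with 12.6 and 10.8 FPKM in the low groups.

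**Figure D4:**
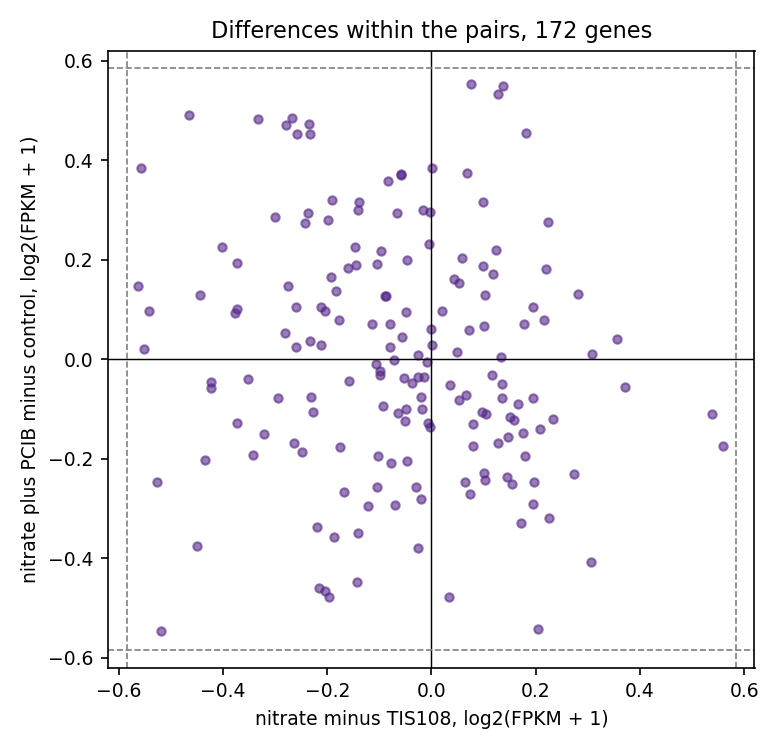
Difference of nitrate from TIS108 (horizontal) against that of nitrate plus PCIB from the control (vertical) on the log2(FPKM + 1) scale, 1 point per gene; dashed lines mark the 1.5-fold limits that the choice set. Of the 172 genes 107 lie left of 0, and 84 lie above 0 and 88 below.

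The edge of the group was not a gap in the values. The smallest separation, 0.59 on the log2 scale, was that of Zm00001d010617, at 5.28 FPKM in control roots, 1.45 under nitrate, 2.53 under TIS108 and 4.29 under nitrate plus PCIB. Zm00001d047913 was inside by 27.2 FPKM in both high groups against 16.9 and 17.8 FPKM, and Zm00001d010614 by 128 and 116 FPKM against 76.7 and 66.3 FPKM. Just outside, Zm00001d042634 was at 30.5 FPKM in control roots, 14.9 under nitrate, 20.01 under TIS108 and 33.1 under nitrate plus PCIB. Zm00001d046883 missed at 14.8, 9.52, 8.51 and 19.5 FPKM in the same order, and Zm00001d025654 at 16.1, 8.94, 10.4 and 18.0 FPKM. Each of these 3 fell short by about 0.002 on the log2 scale, and 85 of the 172 members had a separation under 0.7.

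Identifier numbers were not used by the choice. A consecutive number belonged to another member for 6 of the 172 genes (3.49%), and to a member for 0.758% of the other 15568 genes. Another member lay within 5 identifier numbers for 10 of the 172 genes (5.81%), and a member lay as near to 3.61% of the others. The 6 genes form 3 pairs, of which Zm00001d016660 and Zm00001d016661 are the uncertain entries named above. The others were Zm00001d009566 with Zm00001d009567, and Zm00001d014733 with Zm00001d014734. The shares of 3.49% and 5.81% count the uncertain entries as separate genes, and shares without them were not computed. Zm00001d009567 was at 45.8 FPKM in control roots, 14.2 under nitrate, 16.5 under TIS108 and 32.6 under nitrate plus PCIB, and Zm00001d009566 at 12.4, 5.67, 5.81 and 10.2 FPKM. Both were below the control with nitrate plus PCIB. In the last pair, Zm00001d014733 was at 38.2, 25.0, 21.7 and 41.2 FPKM and Zm00001d014734 at 6.39, 2.27, 3.79 and 6.50 FPKM in the same order. No chromosome positions were used. The table changes from 3 to more decimals after its first 11467 entries, and members were found on both sides of this change, 70 of 11362 genes (0.616%) before it and 102 of 14699 (0.694%) after it.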

How the data were processed

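Poly(A) RNA of 12 primary root samples was sequenced as paired-end libraries, per the labels' protocols. The authors deposited 1 table of FPKM values with 1 column per treatment, per the file headers; the way in which replicates were merged is not stated there. The submitters' processing notes name CASAVA 1.8, Trimmomatic 0.39, TopHat2 2.0.13 and the build B73 RefGen_v4, without their roles. The depth is unknown, so no interval or detection limit was computed. Columns were matched to groups through the sample titles; 0 columns belonged to no group. Log2 values used a pseudocount of 1, which narrows differences of low genes; ratios are plain FPKM ratios. The 1.5-fold limit is a log2 difference of 0.585. Python 3.11.15 with pandas 2.3.3 was used. The code for the choice was checked on simulated data with 2-fold changes planted in more abundant genes. This says nothing of how reliable the members are. With 1 value per group 0 tests across replicates were made. The genes, lists and limits were chosen with earlier results of these data known. Genes are named by rank: the 8 most abundant in the control, the 10 most separated, the 3 just inside and the 3 just outside, the 2 extremes of each within-pair difference, and consecutive identifiers. A RefSeq table of another assembly matched 0 of the 172 identifiers. Lists of nitrate, strigolactone, auxin and root genes could therefore not be filled. Alternatives were other pseudocounts, scalings, minimum levels and limits.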

Additional observations from a re-analysis of the deposited data

How the results depend on the processing

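No paired analysis was possible because the table has 1 column per group; leaving out replicates could not be run for the same reason. The 172 genes became 65 with a pseudocount of 5 (62 of them shared), 93 with columns rescaled to the same sum (92 shared), 113 with a minimum of 10 FPKM and 17 with a limit of 1 between pairs. They were 194, 135, 237 and 115 with a pseudocount of 0.1, quantile normalization, no minimum level and a limit of 0.3 within pairs. The exchanged pattern, at 0 genes, had 2 with a pseudocount of 0.1 (Zm00001d048886 and Zm00001d011472), 6 with rescaled columns, 3 after quantile normalization (the former 2 and Zm00001d016119) and 4 without a minimum level (Zm00001d006375, Zm00001d039533, Zm00001d021463 and Zm00001d012726). Members past 2-fold were counted for nitrate and TIS108 against the control and then against nitrate plus PCIB. They numbered 17, 18, 19 and 12 of 65 with a pseudocount of 5. With rescaled columns they were 38, 32, 47 and 34 of 93, and with the higher minimum 40, 36, 42 and 36 of 113. Shares of all genes past 2-fold were not computed under these settings, so the counts have no reference there. The share lower with nitrate than with TIS108 was 53.8% with a pseudocount of 5, where that of all genes was 45.9%. The share with a member within 5 identifier numbers was 2.15% with rescaled columns and 1.48% after quantile normalization. The share of other genes depends on the number of members and was not kept for these scalings. Whether members were nearer to each other than other genes is therefore unknown there. Within 20 numbers the share was 16.3%, where that of other genes was 13.3%. This share too counts Zm00001d016660 and Zm00001d016661 as separate genes. The 4 median differences moved by less than 1.5 times, which says nothing of stability, since the genes were chosen anew by the same limits under each setting. Rescaling moved the median of all genes for TIS108 against the control from 0.01 to 0.16. Fewer genes tested or a stricter limit lowers the counts by construction; otherwise the cause was not tested. Without counts per replicate, none of these differences can be set against replicate error.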
